A study of Mus musculus with 24 samples.

Results

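The genes described here make, carry, take up and break down the monoamines serotonin and dopamine. They were chosen by name as 9 gene symbols of a deposited table of 18777. Tph2, Th, Ddc and Gch1 serve synthesis, Slc18a2, Slc6a4 and Slc6a3 transport, and Maoa and Maob breakdown. All 9 were in the table, and 8 of them passed a filter on low values (a mean level of 1 FPKM or more), as did 13806 genes of the table. FPKM is fragments per kilobase of transcript, scaled to the mapped fragments of the library, so levels can be set side by side between genes of different length. The exception was Slc6a4, with a mean of 0.519 FPKM.

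RNA-seq was done on total RNA of the hypothalamus in C57BL6 mice, with 24 libraries in all. The animals were 15 months old and had been on their diet since 12 weeks of age. Diets differed in their content of leucine, isoleucine and valine, the branched-chain amino acids (BCAA), which stood at 20, 50, 100 or 200% of the control content. They are called BCAA20, BCAA50, BCAA100 and BCAA200, and each was fed to 3 males and 3 females. All diets had 18.8% protein, 63.4% carbohydrate and 17.8% fat at 14.4 MJ per kg, and the labels name no genotype or drug that differed between groups. The 6 BCAA100 libraries, whose titles call the diet Chow, were sequenced on lane 2 and the other 18 on lane 1. Differences from BCAA100 and differences between lanes cannot be told apart.

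Serotonin neurons hydroxylate tryptophan with Tph2 and dopamine neurons hydroxylate tyrosine with Th, both with tetrahydrobiopterin as cofactor. Ddc then removes the carboxyl group in either pathway, Slc18a2 loads the amine into synaptic vesicles, Slc6a4 or Slc6a3 takes it back up from outside the cell, and the mitochondrial enzymes Maoa and Maob oxidise it. Serotonin cell bodies lie in the raphe of the brainstem, while dopamine cell bodies lie both in the hypothalamus, where the arcuate and periventricular groups regulate prolactin, and in the neighbouring ventral midbrain. Branched-chain amino acids compete with tryptophan and tyrosine for the large neutral amino acid carrier at the blood-brain barrier.

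FPKM values give no read depth, so the depth of each library is unknown. The 21 markers of hypothalamic nuclei were all measured, and their summed level ran from 659 to 831 FPKM in BCAA20, from 486 to 1256 FPKM in BCAA50, from 89.8 to 1479 FPKM in BCAA100 and from 489 to 949 FPKM in BCAA200. Some libraries stood apart. BCAA100 male replicate 6 had the orexin gene Hcrt at 0, oxytocin (Oxt) at 0.355 FPKM and vasopressin (Avp) at 0.658 FPKM. BCAA50 female replicate 2 had Hcrt at 0.257 FPKM, and BCAA200 female replicate 2 had it at 1.65 FPKM. Slc17a7, a vesicular glutamate transporter of cortex and hippocampus, was at 6.23 FPKM in BCAA50 female replicate 1, 3.99 FPKM in BCAA100 male replicate 5 and 12.6 FPKM in BCAA100 male replicate 6, and at 105.7 FPKM or more in the other libraries. The library labelled BCAA20 male replicate 6 had Xist at 154 FPKM and the Y-linked gene Ddx3y at 0, against its label. The 5 libraries left out further on had sex-linked genes against the label, Slc17a7 under 20 FPKM or Hcrt under 1 FPKM. BCAA200 female replicate 2 is thus not among them.

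The monoamine genes fell into 2 kinds by their spread. Slc6a3, Tph2, Slc18a2 and Th were among the most variable genes of the data, and Maoa and Maob were among the ordinary ones. The SD of log2(FPKM + 0.5) over the 24 libraries was 1.97 for Slc6a3, which ranked 14 of 13806 genes, and 1.25 for Tph2, which ranked 93. It was 1.09 for both Slc18a2 and Th, 0.73 for Ddc, 0.42 for Gch1, 0.31 for Maob and 0.23 for Maoa, against a median of 0.23 over all genes tested. Little of the spread of Slc6a3, Slc18a2 and Ddc lay between diets. Diet accounted for 35.8% of the variance of Tph2 and 33.7% of that of Slc6a4, but for 9.13% of that of Slc6a3, 3.71% of that of Slc18a2 and 1.13% of that of Ddc, against a median of 11.1% over all genes. For each of the 9 genes, the ranges overlapped in all 6 pairs of diets, and 1.29% of all genes tested had a pair of diets without overlap. That share was 0.145% for BCAA200 and BCAA20, 0.0869% for BCAA200 and BCAA50, 0.116% for BCAA50 and BCAA20, 0.565% for BCAA200 and BCAA100, 0.225% for BCAA50 and BCAA100 and 0.369% for BCAA20 and BCAA100. In bulk tissue, fewer cells of a type and less RNA per cell cannot be told apart.

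**Figure D1:**
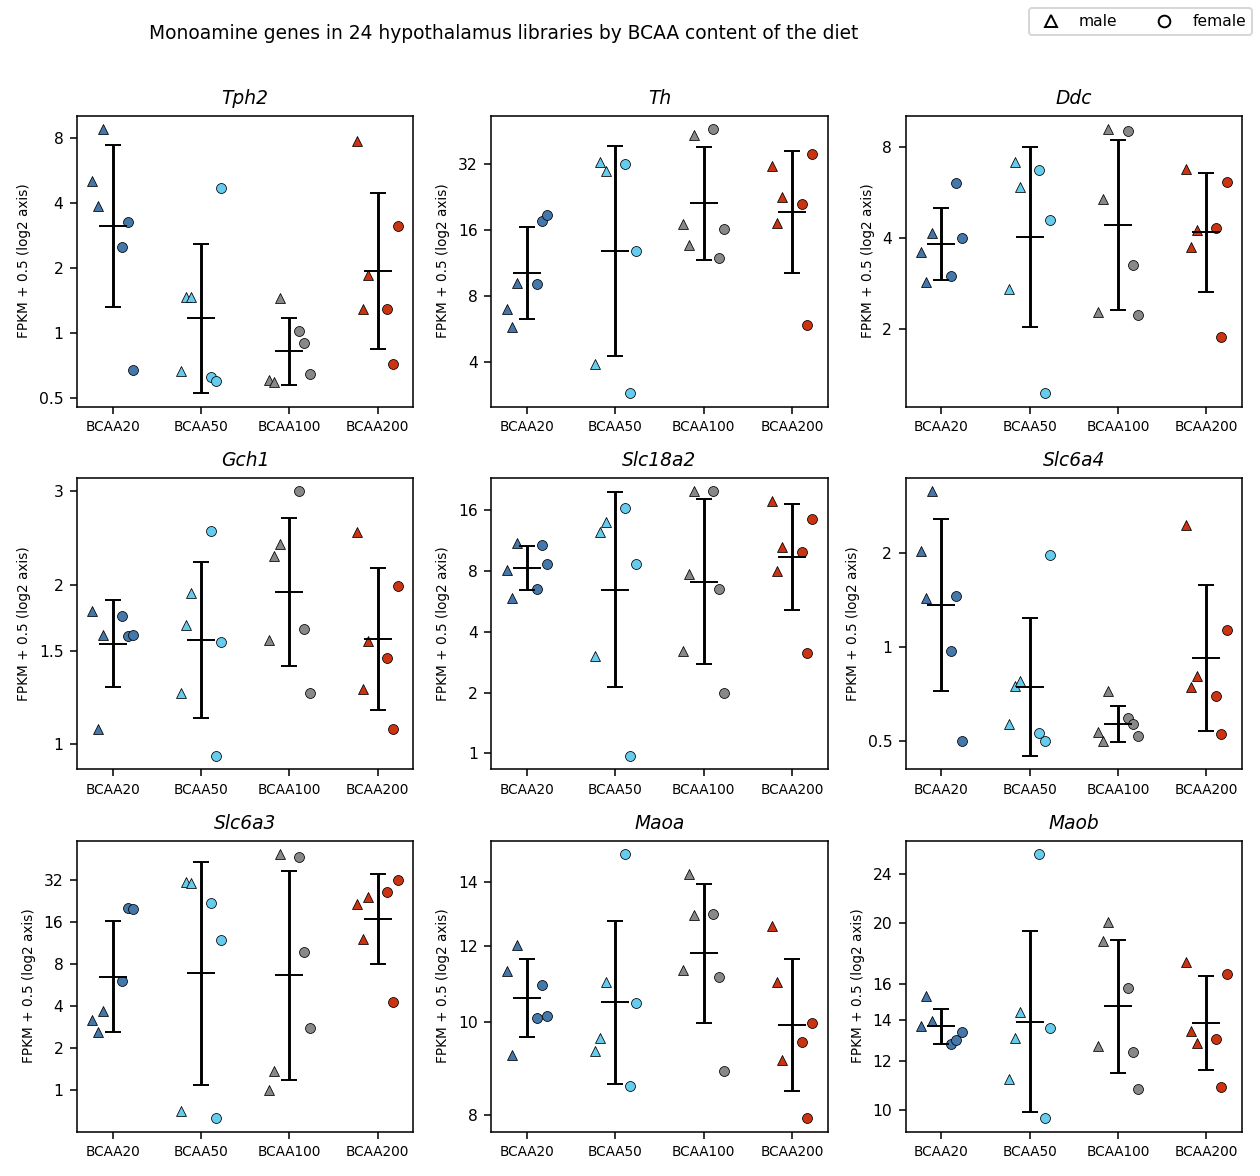
Level of each monoamine gene in every library, as FPKM + 0.5 on a log2 axis, by diet; triangles are males, circles females, and the bar and whiskers give the mean and SD of log2 values over 6 libraries. The 4 diets overlap for all 9 genes, and Slc6a3 runs from 0.123 to 48.7 FPKM while Maoa runs from 7.44 to 14.5 FPKM.

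Th, tyrosine hydroxylase, is the rate-limiting enzyme of dopamine synthesis and lies on the minus strand of chromosome 7 at chr7:142892752-142931128 (GRCm38). Its lowest, median and highest levels were 5.26, 8.63 and 18.2 FPKM in BCAA20, 2.38, 20.7 and 31.9 FPKM in BCAA50, 11.4, 16.1 and 45.6 FPKM in BCAA100, and 5.41, 21.2 and 34.7 FPKM in BCAA200. The highest libraries were BCAA100 female replicate 1 and BCAA100 male replicate 6, and the lowest were BCAA50 female replicate 2 and BCAA50 male replicate 4. The 3 BCAA20 males, at 6.46, 5.26 and 8.71 FPKM, lay below the median of each of the other 3 diets. Ddc, aromatic L-amino acid decarboxylase, is shared by the serotonin and dopamine pathways and lies on the minus strand at chr11:11814101-11898144. It averaged 3.45 ± 1.17 FPKM in BCAA20, 4.21 ± 2.34 FPKM in BCAA50, 4.73 ± 3.21 FPKM in BCAA100 and 4.01 ± 1.75 FPKM in BCAA200 (SD, n = 6 each). It was highest in the same 2 BCAA100 libraries as Th and lowest in BCAA50 female replicate 2, at 0.725 FPKM. The antisense gene 1700042O10Rik overlaps Ddc, and the use of strand in counting was not given in the sources used here.

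Since the genes of dopamine synthesis and storage moved together over libraries, as shown further on, their promoter windows were read from the RefSeq table for GRCm38.p6, from 250 bases before to 50 after each annotated start. It held 9 windows for 8 of the 9 genes, and Maob was not among them. The span of Th given above is from GENCODE, and on the minus strand it begins at chr7:142931128. The RefSeq start used for the window of Th lies inside that span. The cAMP response element TGACGTCA, which is its own reverse complement, was in the windows of Th, where it begins 45 bases before the start, and of Slc18a2, where it begins 4 bases before the start. It was in 588 of 32851 windows of that length, or 1.79%. The NGFI-B response element AAAGGTCA, which the dopamine neuron factor Nr4a2 binds, was found in 1 of the windows of Ddc on the opposite strand, as TGACCTTT, 73 bases before the start. It was in 1.51% of all windows. The other window of Ddc, at chr11:11890359-11890658 on the minus strand, held no match. Which start of Ddc was used in these libraries was not tested. The other motif searched, TAATCC, bound by homeobox factors of the Pitx family, was in none of the 9 windows and in 7.06% of all. Both strands were searched, no window of these genes held more than 1 of the motifs, and a match is a string of letters and not a measured site. The part of such matches in how the genes varied over libraries was not tested. The 3 windows with a match are shown with it in capitals, at chr7:142899946-142900245 on the minus strand for Th, at chr19:59260628-59260927 on the plus strand for Slc18a2 and at chr11:11898095-11898394 on the minus strand for Ddc.
Th: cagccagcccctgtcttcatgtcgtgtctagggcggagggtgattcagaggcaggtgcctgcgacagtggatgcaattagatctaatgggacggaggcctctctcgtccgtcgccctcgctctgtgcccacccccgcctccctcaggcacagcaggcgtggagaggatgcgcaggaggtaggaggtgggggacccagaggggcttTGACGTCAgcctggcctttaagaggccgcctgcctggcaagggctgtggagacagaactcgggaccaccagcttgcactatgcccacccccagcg
Slc18a2: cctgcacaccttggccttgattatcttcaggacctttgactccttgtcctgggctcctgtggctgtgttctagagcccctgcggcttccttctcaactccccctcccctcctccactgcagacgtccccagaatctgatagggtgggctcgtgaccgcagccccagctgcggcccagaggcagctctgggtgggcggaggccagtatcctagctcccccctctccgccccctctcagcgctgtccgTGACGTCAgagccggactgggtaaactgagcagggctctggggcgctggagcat
Ddc: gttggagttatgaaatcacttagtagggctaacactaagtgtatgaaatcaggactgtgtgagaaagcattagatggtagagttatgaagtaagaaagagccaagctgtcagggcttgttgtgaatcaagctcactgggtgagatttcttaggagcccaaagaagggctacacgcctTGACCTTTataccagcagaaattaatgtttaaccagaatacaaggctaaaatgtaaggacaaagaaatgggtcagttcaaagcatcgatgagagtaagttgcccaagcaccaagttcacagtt

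Slc18a2, the vesicular monoamine transporter used by serotonin, dopamine, noradrenaline and histamine neurons alike, lies on the plus strand at chr19:59260896-59296012. Its lowest, median and highest levels were 5.40, 7.91 and 10.6 FPKM in BCAA20, 0.473, 10.1 and 15.9 FPKM in BCAA50, 1.49, 6.66 and 19.4 FPKM in BCAA100, and 2.65, 9.78 and 17.3 FPKM in BCAA200. BCAA20 had the narrowest range, which lay inside that of each other diet. The antisense gene Gm29261 overlaps it. Slc6a3, the plasma membrane dopamine transporter, lies on the plus strand at chr13:73536747-73578672. Its lowest, median and highest levels were 2.11, 4.37 and 19.8 FPKM in BCAA20, 0.123, 16.2 and 30.2 FPKM in BCAA50, 0.489, 5.73 and 48.7 FPKM in BCAA100, and 3.78, 22.3 and 31.6 FPKM in BCAA200. The top 2 libraries were both BCAA100, and BCAA50 and BCAA100 also held the 4 libraries under 1 FPKM. The highest level was 396-fold the lowest, the widest ratio among the 8 genes past the filter.

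Th and Slc6a3 had nearly equal levels where Slc6a3 was high and unequal ones where it was low. In the 13 libraries with at least 10 FPKM of Slc6a3, the ratio of Th to Slc6a3 lay between 0.789 and 1.48, with a median of 0.990. In the other 11 it lay between 1.25 and 33.7, with a median of 2.73. The highest ratios were 33.7 in BCAA100 male replicate 4, 19.4 in BCAA50 female replicate 2, 16.5 in BCAA50 male replicate 4 and 15.1 in BCAA100 male replicate 5. Th thus kept a level of 2.38 FPKM or more in libraries where Slc6a3 was at 0.871 FPKM or less. The division at 10 FPKM was chosen after these values were seen, and it carries no test.

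Tph2, the tryptophan hydroxylase of neurons and the rate-limiting enzyme of brain serotonin synthesis, lies on the minus strand at chr10:115078641-115185022. It was low in most libraries and high in a few that were spread over 3 diets. Its lowest, median and highest levels were 0.170, 3.07 and 8.38 FPKM in BCAA20, 0.0990, 0.567 and 4.22 FPKM in BCAA50, 0.0920, 0.271 and 0.955 FPKM in BCAA100, and 0.215, 1.08 and 7.30 FPKM in BCAA200. At 2 FPKM or more stood 5 BCAA20 libraries, BCAA50 female replicate 3, BCAA200 female replicate 3 and BCAA200 male replicate 4. No BCAA100 library reached 1 FPKM. The highest level, 8.38 FPKM, was in the library labelled BCAA20 male replicate 6, whose sex-linked genes went against its label.

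Slc6a4, the plasma membrane serotonin transporter, lies on the plus strand at chr11:76998603-77032340, where the antisense gene Gm12343 overlaps it. It was listed at 0 in 3 libraries and followed Tph2 at a lower level. Its lowest, median and highest levels were 0, 0.948 and 2.65 FPKM in BCAA20, 0, 0.160 and 1.47 FPKM in BCAA50, 0, 0.0525 and 0.224 FPKM in BCAA100, and 0.0290, 0.277 and 1.95 FPKM in BCAA200. The highest library of BCAA20, BCAA50, BCAA100 and BCAA200 was the same for Slc6a4 as for Tph2. In the 8 libraries with at least 2 FPKM of Tph2, the ratio of Tph2 to Slc6a4 lay between 2.87 and 4.28, with a median of 3.38. That these 2 genes share their high libraries was known when they were chosen, so it is given as a description.

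Gch1, GTP cyclohydrolase, makes the first step of tetrahydrobiopterin, the cofactor of Th and Tph2, and lies on the minus strand at chr14:47153895-47189413. It averaged 1.07 ± 0.258 FPKM in BCAA20, 1.15 ± 0.547 FPKM in BCAA50, 1.52 ± 0.648 FPKM in BCAA100 and 1.14 ± 0.527 FPKM in BCAA200 (SD, n = 6 each). Its 2 overlapping genes are processed pseudogenes, of which 1 is on the same strand. Gch1 was highest in BCAA100 female replicate 1, at 2.502 FPKM, and lowest in BCAA50 female replicate 2, at 0.448 FPKM. Those are also the highest and lowest libraries for Th and Slc18a2.

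Maoa, which prefers serotonin and noradrenaline, and Maob, which is abundant in astrocytes and in serotonin and histamine neurons, lie tail to tail on the X chromosome. Maoa is on the plus strand at chrX:16619698-16687818 and Maob on the minus strand at chrX:16709282-16817366, with 21464 bases between them. Maoa averaged 10.1 ± 0.991 FPKM in BCAA20, 10.2 ± 2.28 FPKM in BCAA50, 11.4 ± 1.88 FPKM in BCAA100 and 9.54 ± 1.61 FPKM in BCAA200 (SD, n = 6 each). Maob averaged 13.2 ± 0.906 FPKM in BCAA20, 14.1 ± 5.77 FPKM in BCAA50, 14.6 ± 3.75 FPKM in BCAA100 and 13.5 ± 2.46 FPKM in BCAA200 (SD, n = 6 each). Both were highest in BCAA50 female replicate 1, at 14.5 FPKM for Maoa and 25.4 FPKM for Maob, the library where Slc17a7 was at 6.23 FPKM. Maob was the higher of the 2 in every library, with a ratio of Maob to Maoa between 1.12 and 1.76 and a median of 1.32.

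None of the 8 genes past the filter passed the test between BCAA200 and BCAA20, the widest contrast of BCAA content within lane 1. Of the 8, 6 had a log2 change above 0 and 2 below, with a median of 0.08, against a median of -0.01 over all genes tested. Slc6a3 averaged 19.6 ± 10.1 FPKM in BCAA200 and 8.75 ± 8.42 FPKM in BCAA20 (SD, n = 6 each), a log2 change of 1.38 (SE 1.12, 95% interval -0.97 to 3.73). The level reached 22.3 FPKM at the median of BCAA200 against 4.37 FPKM at that of BCAA20, but the ranges overlapped. Th averaged 21.7 ± 10.4 FPKM in BCAA200 and 10.7 ± 5.53 FPKM in BCAA20, a log2 change of 0.93 (SE 0.61, 95% interval -0.34 to 2.20). Tph2 averaged 2.18 ± 2.64 FPKM in BCAA200 and 3.54 ± 2.78 FPKM in BCAA20, a log2 change of -0.69 (SE 0.57, 95% interval -1.88 to 0.50). Without BCAA20 male replicate 6, the change was 1.44 for Slc6a3, 1.02 for Th and -0.52 for Tph2. Limma's lowest unadjusted p among the 8 genes was 0.142, for Th, and every adjusted p over 13806 genes was 1.00. No gene of the table passed the adjusted threshold in that comparison (0% of those tested), and 2.89% of genes had an unadjusted p under 0.05.

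The changes of the 5 other genes past the filter were nearer to 0. The log2 change in BCAA200 relative to BCAA20 was 0.18 for Slc18a2 (SE 0.67), 0.13 for Ddc (SE 0.45) and 0.03 for Gch1 (SE 0.26). For Maoa, the level in BCAA200 minus that in BCAA20 was -0.09 on the log2 scale, with a 95% interval of -0.36 to 0.18. For Maob it was 0.02, with a 95% interval of -0.37 to 0.41. A 1.5-fold difference in either direction thus lay outside the interval of both oxidases, while the interval of Slc6a3 ran from -0.97 to 3.73. Slc6a4, below the filter, averaged 0.561 ± 0.709 FPKM in BCAA200 and 1.09 ± 0.921 FPKM in BCAA20 (SD, n = 6 each). The difference of the mean log2 values was -0.57, with a two-sided exact permutation p of 0.262 over 924 assignments of the libraries. Without BCAA20 male replicate 6 it was -0.32, with an exact permutation p of 0.5.

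Tph2 was the 1 gene of the 8 with an unadjusted p under 0.05 in any comparison, and none of these passed adjustment. BCAA50 had a median of 0.567 FPKM, against 3.07 FPKM in BCAA20, a log2 change of -1.43 (SE 0.57, limma unadjusted p = 0.0216, adjusted p = 1.00). The change was -1.26 without BCAA20 male replicate 6, and -1.02 without the 4 libraries that stood apart by sex-linked genes or Slc17a7. It was -0.28 (SE 0.65) without the 5 libraries that stood apart by sex-linked genes, Slc17a7 or Hcrt, a set chosen after the data were seen. In that comparison 2.68% of all genes had an unadjusted p under 0.05 and 0% passed adjustment. BCAA20 had a median of 3.07 FPKM and BCAA200 one of 1.08 FPKM, against 0.271 FPKM in BCAA100. The log2 change relative to BCAA100 was 1.93 in BCAA20 (SE 0.57, limma unadjusted p = 0.00306, adjusted p = 0.502) and 1.25 in BCAA200 (SE 0.57, limma unadjusted p = 0.0415, adjusted p = 0.404). Without the 4 libraries, and likewise without the 5, the change relative to BCAA100 was 1.97 in BCAA20 and 1.45 in BCAA200. Both comparisons share the 6 BCAA100 libraries, and diet and lane cannot be told apart in them. Background was higher there: 7.09% of genes in BCAA20 minus BCAA100 and 11.7% in BCAA200 minus BCAA100 had an unadjusted p under 0.05, with 0% and 0.0145% past adjustment. The BCAA20 libraries were high in Tph2 in 5 of 6 cases, and BCAA200 and BCAA50 each had 1 library that set their highest value.

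In the 2 comparisons left, none of the 8 genes had an unadjusted p under 0.05 by limma. The share of all genes was 2.52% in BCAA200 minus BCAA50 and 7.65% in BCAA50 minus BCAA100, with 0% past adjustment in each. The lowest unadjusted p among the 8 was 0.211 in the first and 0.203 in the second. The trend per doubling of BCAA content over the 3 diets of lane 1 also passed for none of the 8, with 0% of all genes past adjustment and 2.83% at an unadjusted p under 0.05. Its largest slopes were 0.43 log2 units per doubling for Slc6a3 (SE 0.34) and 0.28 for Th (SE 0.18).

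**Figure D2:**
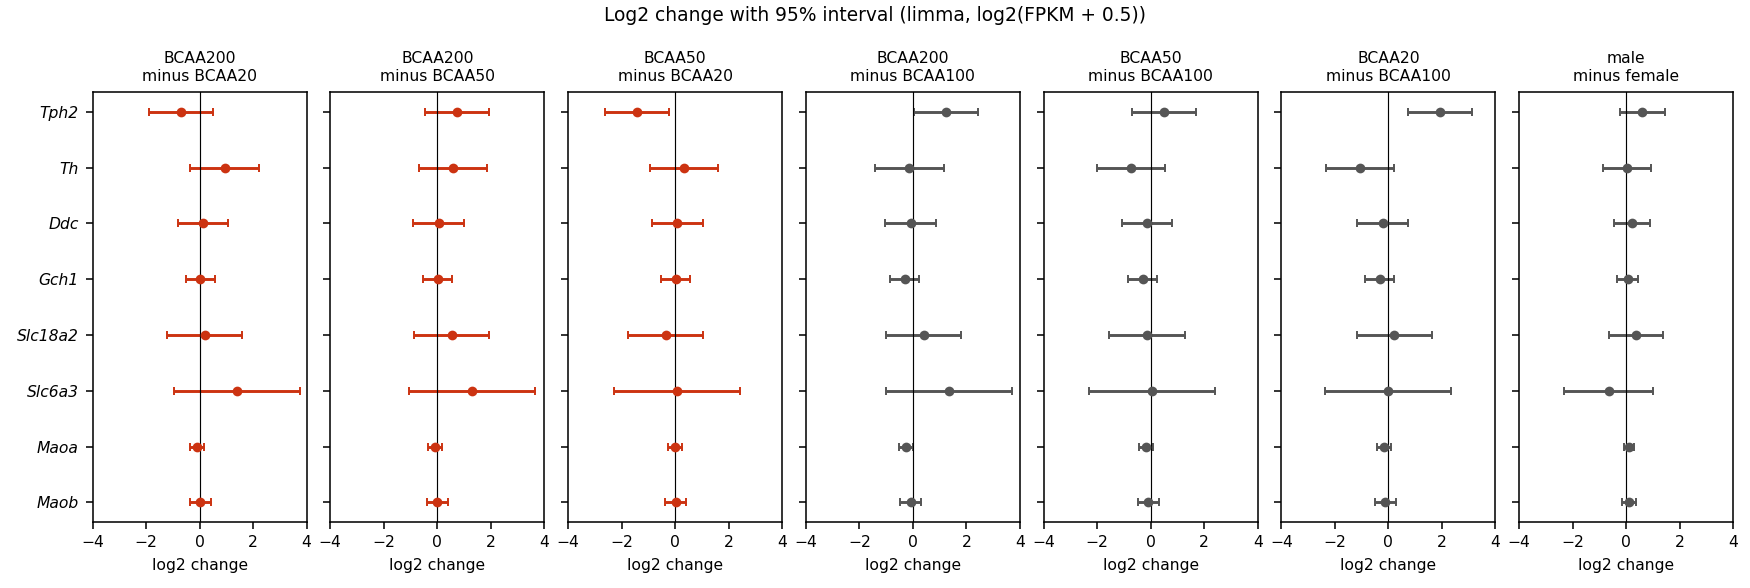
Log2 change of the 8 monoamine genes past the filter in each pair of diets and between the sexes (points) with 95% intervals (bars), on the log2(FPKM + 0.5) scale; comparisons within lane 1 are red, and those with BCAA100 or between sexes are grey. Apart from Tph2 in 3 panels, the intervals cross 0, and no gene passed after adjustment over 13806 genes.

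None of the 8 genes passed the test between males and females. Tph2 averaged 2.42 ± 2.87 FPKM in males and 1.17 ± 1.38 FPKM in females (SD, n = 12 each), a log2 difference of 0.60 (SE 0.40, limma adjusted p = 0.941). Without BCAA20 male replicate 6, whose sex-linked genes went against its label and which had the highest Tph2, the males averaged 1.88 ± 2.28 FPKM (SD, n = 11), and the log2 difference was 0.52 (SE 0.42, limma adjusted p = 0.995). Slc6a3 averaged 14.5 ± 15.9 FPKM in males and 16.3 ± 13.7 FPKM in females, a log2 difference of -0.64 (SE 0.79, limma adjusted p = 0.945), and of -0.67 without that library. The X-linked pair was close in both sexes. Maoa averaged 10.7 ± 1.63 FPKM in males and 9.97 ± 1.93 FPKM in females, and Maob 14.2 ± 2.68 FPKM in males and 13.5 ± 4.23 FPKM in females. Over all genes, 0.0652% passed adjustment between the sexes and 4.27% had an unadjusted p under 0.05, while 0 of the 8 genes did either.

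In males, Slc6a3 was at 21.1, 11.6 and 23.5 FPKM in BCAA200, against 2.64, 2.11 and 3.19 FPKM in BCAA20. In females it was at 25.9, 3.78 and 31.6 FPKM in BCAA200, against 5.55, 19.8 and 19.3 FPKM in BCAA20. These values, from 3 libraries per group, are given as a description. The last of the 3 BCAA20 male values is from the library whose sex-linked genes went against its label. Limma's test of the difference between the sexes gave 2.37 log2 units (SE 2.25, unadjusted p = 0.304, adjusted p = 1.00). Th gave 1.496 log2 units in the same test (SE 1.21, unadjusted p = 0.233), and none of the 8 genes passed. Over all genes, 0% passed that test and 3.56% had an unadjusted p under 0.05.

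BCAA intake of each animal, deposited with no unit, averaged 0.417 in BCAA20, 1.01 in BCAA50, 2.12 in BCAA100 and 5.26 in BCAA200. These values form 4 separate clusters, so a relation with intake was computed within diets only. None of 36 relations, 9 genes in 4 diets of 6 libraries, passed after Benjamini-Hochberg adjustment. By Pearson's r, the lowest exact permutation p was 0.05, for Slc6a3 in BCAA100, with r = -0.891 and an adjusted p of 0.809, while its rho was -0.771 (exact permutation p = 0.103, adjusted p = 0.63). By Spearman's rho, the lowest exact permutation p was 0.0444, for Maoa in BCAA20, with rho = 0.841 and an adjusted p of 0.63, while its r was 0.736 (exact permutation p = 0.103, adjusted p = 0.809). In BCAA20, BCAA50 and BCAA200, r for Slc6a3 was -0.193, 0.211 and 0.163. In the authors' deposited table, Pearson's R of FPKM with intake over all libraries was highest for Th, at 0.258 with an unadjusted p of 0.223, and lowest for Maoa, at -0.127. The authors' deposited table gave 0.197 for Slc6a3, -0.0989 for Slc6a4 and -0.0294 for Tph2, and none of the 9 was among its 518 genes with an unadjusted p under 0.05.

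Over libraries, groups of the monoamine genes varied together. Th, Slc6a3, Slc18a2 and Ddc varied together, and Tph2 and Slc6a4 varied with each other. Of 36 pairs, 22 passed a permutation test of Pearson's r of log2(FPKM + 0.5) after Benjamini-Hochberg adjustment, and 20 did by Spearman's rho. All 22 were positive. The share over pairs of all genes was not computed, so the count cannot be read as particular to these genes. The pair of Tph2 and Slc6a4 had r = 0.981 and rho = 0.972 over 24 libraries, with r = 0.982 within lane 1 and 0.966 within lane 2. Without the 2 libraries farthest from the median of Tph2, r was 0.974. The permutation p was 1e-05, the smallest that 100000 resamples can give, and 3.6e-05 after adjustment. The shared high libraries of this pair were part of its choice, so it is no independent support.

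Ddc and Slc18a2 were the closest pair of the other set, with r = 0.945 and rho = 0.944 (permutation p = 1e-05, the smallest possible, adjusted p = 3.6e-05). Within lane 1 their r was 0.950, within lane 2 it was 0.969, and without the 2 libraries farthest from the median of Ddc it was 0.918. Th and Slc6a3 had r = 0.837 and rho = 0.893 (permutation p = 1e-05, adjusted p = 3.6e-05), with r = 0.964 within lane 1, 0.799 within lane 2 and 0.751 without the 2 libraries farthest from the median of Th. Slc18a2 and Slc6a3 had r = 0.833 and rho = 0.867 (permutation p = 1e-05, adjusted p = 3.6e-05), with r = 0.845 within lane 1, 0.808 within lane 2 and 0.825 without 2 libraries. These 4 genes gave 6 pairs, and the weakest was Th with Slc18a2 at r = 0.782 and rho = 0.847 (permutation p = 1e-05, adjusted p = 3.6e-05). Without the 5 libraries that stood apart, a set chosen after the data were seen, r was 0.980 for Tph2 with Slc6a4, 0.933 for Ddc with Slc18a2 and 0.803 for Th with Slc6a3.

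Between the sets, Tph2 and Th had r = 0.054 and rho = 0.077 (permutation p = 0.802, adjusted p = 0.825), with r = 0.143 within lane 1, 0.759 within lane 2 and 0.042 without the 2 libraries farthest from the median of Tph2. Over deviations from the 8 group means their r was 0.445. The sets were less separate on that scale, on which 30 of the 36 pairs passed by Pearson's r and 31 by Spearman's rho. Permuting those deviations takes no account of the group means removed. The p-values are then too small, so these counts can be too high. Tph2 and Slc6a3 had r = 0.250 and rho = 0.304 (permutation p = 0.238, adjusted p = 0.330), with r = 0.139 within lane 1 and 0.945 within lane 2, and 0.311 without the 2 libraries farthest from the median of Tph2. For that pair r was 0.473 over deviations from the 8 group means. Slc18a2, which both cell types use, had r = 0.450 with Tph2 (permutation p = 0.0259, adjusted p = 0.0423) and rho = 0.440 (permutation p = 0.0325, adjusted p = 0.0533), so that it passed by r and not by rho. Within lanes 1 and 2 that r was 0.465 and 0.790, over deviations from group means it was 0.530, and without the 2 libraries farthest from the median of Tph2 it was 0.396. Without the 4 libraries that stood apart by sex-linked genes or Slc17a7, r with Tph2 was 0.198 for Th, 0.358 for Slc6a3 and 0.582 for Slc18a2. In the BCAA20 males, Tph2 was at 4.56, 3.37 and 8.38 FPKM while Slc6a3 was at 2.64, 2.11 and 3.19 FPKM and Slc18a2 at 7.64, 5.40 and 10.6 FPKM.

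Gch1, Maoa and Maob varied with each other and with genes of the dopamine set, apart from Maoa with Slc6a3. Maoa had r = 0.664 with Ddc, 0.622 with Slc18a2 and 0.509 with Th. By rho, the pair of Maoa and Th did not pass (adjusted permutation p = 0.0638). Maoa and Slc6a3 had r = 0.267 (adjusted permutation p = 0.296). Maob had r = 0.739 with Ddc, 0.731 with Slc18a2 and 0.601 with Th. With Slc6a3, Maob had r = 0.454 (adjusted permutation p = 0.0418), and 0.286 without the 2 libraries farthest from the median of Slc6a3. The r of Gch1 was highest with Ddc, at 0.846 (rho = 0.784, permutation p = 1e-05, adjusted p = 3.6e-05), and was 0.798 with Slc18a2 (rho = 0.777, permutation p = 2e-05, adjusted p = 5.54e-05). Maoa and Maob had r = 0.817 and rho = 0.709 (permutation p = 1e-05, adjusted p = 3.6e-05), with r = 0.811 within lane 1, 0.892 within lane 2 and 0.745 without the 2 libraries farthest from the median of Maoa. Gch1 and Maoa had r = 0.832 and rho = 0.794 (permutation p = 1e-05, adjusted p = 3.6e-05), with r = 0.790 within lane 1, 0.863 within lane 2 and 0.813 without the 2 libraries farthest from the median of Gch1. With the hydroxylases that use its cofactor, Gch1 had r = 0.759 and rho = 0.676 for Th (permutation p = 2e-05, adjusted p = 5.54e-05) and r = 0.154 and rho = 0.158 for Tph2 (permutation p = 0.475, adjusted p = 0.611). For Gch1 and Tph2, r was 0.342 within lane 1, 0.553 within lane 2 and 0.485 over deviations from group means. Tph2 and Maob had r = 0.144 and rho = 0.320 over 24 libraries (permutation p = 0.502 for r, adjusted p = 0.624). Without the 4 libraries that stood apart by sex-linked genes or Slc17a7 their r was 0.679, and without the 5 it was 0.648. For Slc6a4 and Maob, r was 0.126, 0.610 and 0.581 in the same order. Libraries share dissection and sequencing, so these pairs are not independent of one another.

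**Figure D3:**
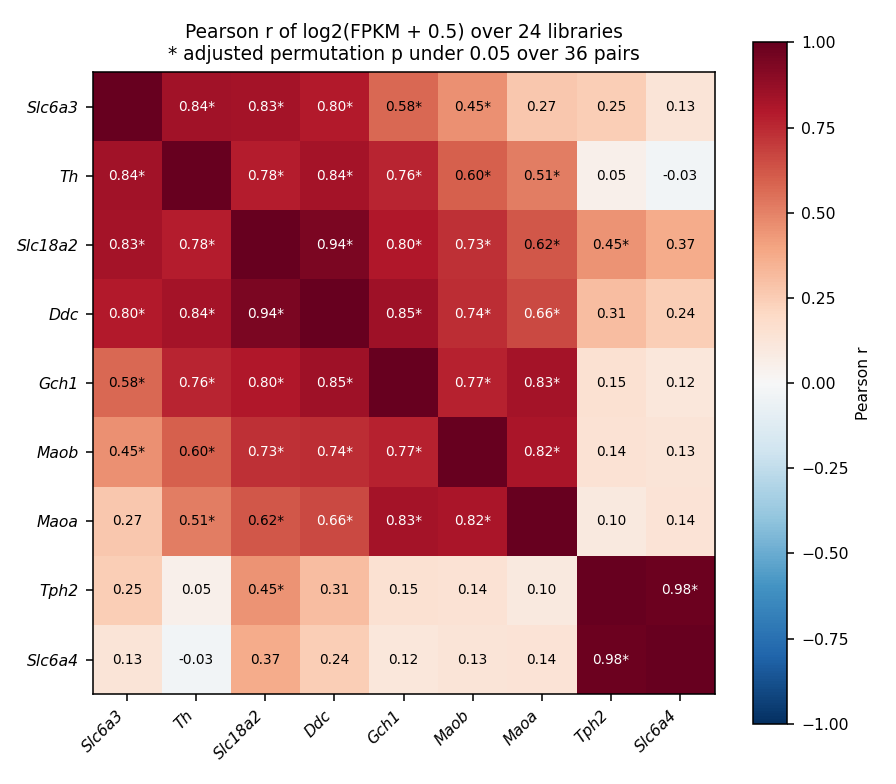
Pearson's r of log2(FPKM + 0.5) over 24 libraries for each pair of the 9 monoamine genes, with an asterisk where the adjusted permutation p was under 0.05. Slc6a3, Th, Slc18a2 and Ddc form a block with r from 0.782 to 0.945, and Tph2 and Slc6a4 form a block of their own with r = 0.981. Without the 4 libraries that stood apart by sex-linked genes or Slc17a7, not shown here, r of Tph2 with Maob was 0.679.

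**Figure D4:**
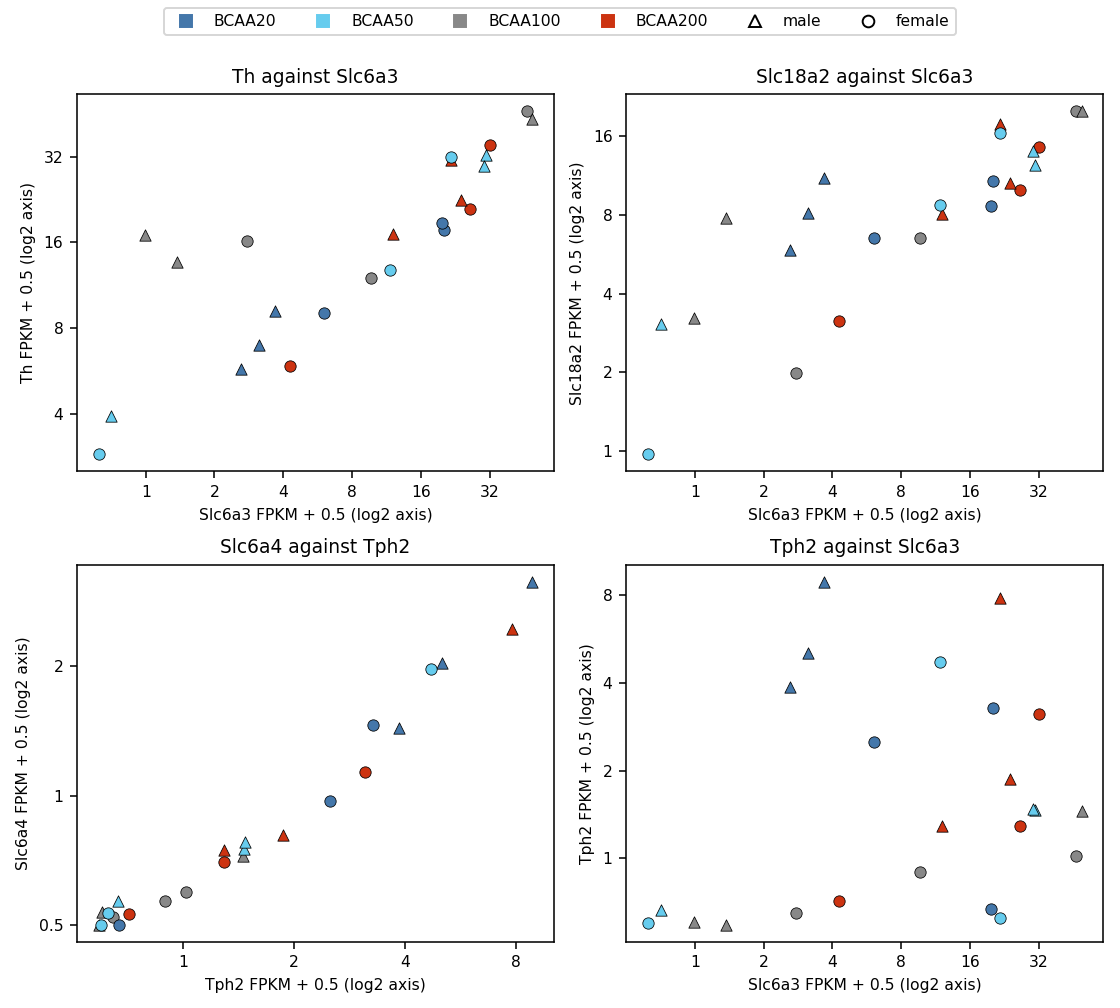
Levels in the 24 libraries for 4 pairs of genes, as FPKM + 0.5 on log2 axes, with colours for diets, triangles for males and circles for females. Slc6a4 follows Tph2 along a line over 24 libraries, Th stays at 2.38 FPKM or more where Slc6a3 is lowest, and Tph2 shows no line with Slc6a3, where the 3 BCAA20 males lie high in Tph2 and low in Slc6a3.

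The genes most like each member over the 24 libraries were taken by Spearman's rho among the genes past the filter, as a description with no test. For Slc6a3 they were Chrna6 (rho = 0.977), a nicotinic receptor subunit of midbrain dopamine neurons, then Aldh1a1 (0.912), a retinaldehyde dehydrogenase of dopamine neurons, the receptor tyrosine kinase gene Ret (0.908), Chrna4 (0.899) and Th (0.893). Chrna6 ran from 0.0320 FPKM in BCAA50 female replicate 2 to 10.5 FPKM in BCAA100 male replicate 6, the same lowest and highest libraries as Slc6a3. Ret also led the list of Th (0.916) and was in those of Ddc (0.908) and Slc18a2 (0.905). The genes most like Ddc further included Sncg, gamma-synuclein (0.930), and Spr, sepiapterin reductase (0.878), the last enzyme of tetrahydrobiopterin synthesis.

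None of the 5 genes most like Tph2 was among those most like Slc6a3. They were Spp1 (osteopontin, rho = 0.822), Irx2 (0.803), Mgp (matrix Gla protein, 0.785), Fibin (0.773) and Lclat1 (0.761), and Spp1, Irx2 and Fibin were also in the list of Slc6a4. Irx2, a homeobox gene, ran from 0.0250 to 7.64 FPKM. For Maoa they were Slc38a1 (0.939), Elac1 (0.937), Peg13 (0.932), Amigo2 (0.930) and Slc35g2 (0.929), and for Maob Lrrc75b (0.889), Nkain4 (0.888), Sparc (0.883), Agt (0.881) and Hsf4 (0.871). Sparc and the angiotensinogen gene Agt are expressed by astrocytes. Agt is 1 of 10 astrocyte markers listed, and rho with Maob differed widely among the others. It was 0.657 for Sox9, 0.617 for Gjb6, 0.576 for Gja1 and 0.561 for Fgfr3. It was 0.212 for Aldh1l1, 0.170 for Gfap, 0.139 for Slc1a3, 0.061 for Aqp4 and -0.394 for Slc1a2. For Gch1 they were Anxa5 (0.888), Sncg (0.875), Ctsf (0.866), Prkra (0.862) and Tspan3 (0.857).

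Markers of midbrain dopamine neurons were present and moved with the dopamine genes. Of the 10 markers besides the monoamine genes, all were in the table, and their summed level ran from 36.4 to 59.1 FPKM in BCAA20, from 22.5 to 74.6 FPKM in BCAA50, from 26.9 to 133 FPKM in BCAA100 and from 31.9 to 75.5 FPKM in BCAA200. Over the 24 libraries, as a description, rho with Slc6a3 was 0.958 for En1, 0.846 for En2, 0.819 for Pitx3, 0.796 for Foxa1, 0.724 for Foxa2, 0.713 for Lmx1b, 0.709 for Ntsr1 and 0.077 for Nr4a2. Pitx3 was at 0 in 7 libraries, Foxa2 in 5, En1 in 2 and Foxa1 in 1. En1, a homeobox gene of midbrain and hindbrain, reached 2.16 FPKM in BCAA100 male replicate 6, where Slc6a3 was highest and Hcrt was at 0. The part of these markers in the results on Slc6a3, Th, Slc18a2 and Ddc was not tested.

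The summed level of raphe serotonin neuron markers was lower. All 9 markers besides Tph2 and Slc6a4 were in the table, and their summed level ran from 6.88 to 12.0 FPKM in BCAA20, from 5.78 to 10.96 FPKM in BCAA50, from 6.26 to 15.5 FPKM in BCAA100 and from 5.01 to 10.9 FPKM in BCAA200. The midbrain sum held Aldh1a1, with a median of 32.3 FPKM, and Nr4a2, with 7.43 FPKM. Other transcription factors had like levels in both lists. Medians were 0.109 FPKM for Fev, 0.088 FPKM for Gata3 and 0.69 FPKM for Gata2. They were 0.1225 FPKM for Pitx3, 0.0785 FPKM for Foxa2 and 0.35 FPKM for Foxa1. Fev, the transcription factor that defines serotonin neurons, was at 0 in 3 libraries. It reached 0.477 FPKM at most, in BCAA20 male replicate 6, the library with the highest Tph2. In BCAA200 male replicate 4, where Tph2 was at 7.30 FPKM, Fev was at 0.053 FPKM. Over the 24 libraries, as a description, rho with Tph2 was 0.583 for Gata3, 0.510 for Gchfr, 0.504 for Fev, 0.367 for Lmx1b, 0.355 for Gata2, 0.352 for En1, 0.287 for Slc17a8, 0.272 for Htr1a and -0.296 for Slc22a3. Gata3 was at 0 in 6 libraries and highest, at 5.66 FPKM, in BCAA100 male replicate 6, where Tph2 was at 0.955 FPKM. The astrocyte gene Gfap, no raphe marker, had a rho of 0.725 with Tph2. For the other astrocyte markers listed, rho with Tph2 ran from -0.389 for Aldh1l1 to 0.430 for Aqp4. The part of these markers in the results on Tph2 and Slc6a4 was not tested. Genes of noradrenaline and adrenaline neurons, such as Dbh and Slc6a2, were not analysed here.

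**Figure D5:**
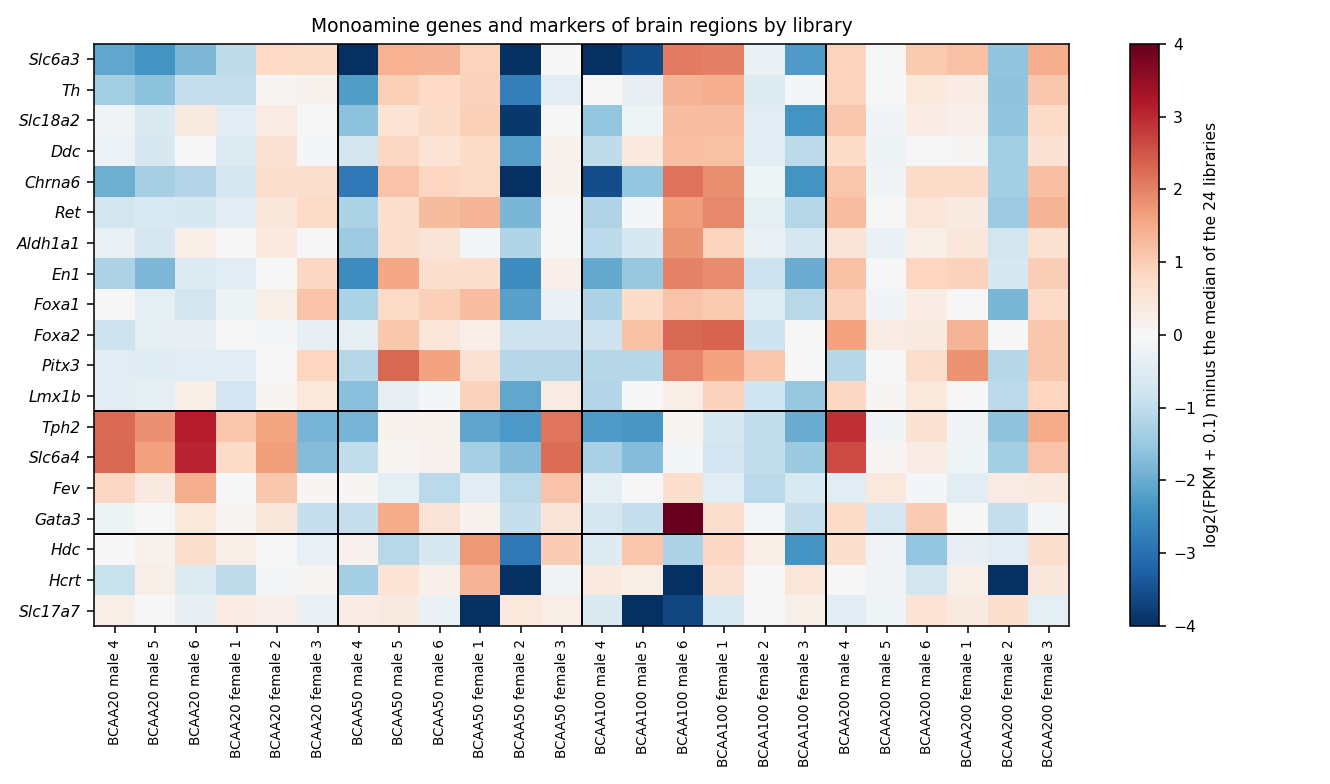
Levels of monoamine genes and region markers by library, as log2(FPKM + 0.1) minus the median over 24 libraries, with black lines between diets and between dopamine, serotonin and other genes. The dopamine genes and the markers Chrna6, Ret and En1 are low or high in the same libraries, Tph2 and Slc6a4 are highest in BCAA20 male replicate 6 and BCAA200 male replicate 4, and Slc17a7 or Hcrt is low in the libraries that stood apart by those genes.

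Genes around the pathway, from lists drawn up with earlier results of these data known, gave 0 called genes in BCAA200 minus BCAA20 by limma. Of the 7 tetrahydrobiopterin enzymes besides Gch1, 5 were tested, of which 1 lay above 0 and 4 below, with a median log2 change of -0.02. Of 13 further breakdown and uptake genes 9 were tested, of which 5 lay above 0 and 4 below, with a median of 0.04, and 1 had an unadjusted p under 0.05, as 2.89% of all genes did. Of 16 genes of tryptophan entry and the kynurenine pathway 3 were tested, the carrier subunits Slc7a5, Slc3a2 and Slc7a8, and all 3 lay above 0, with a median of 0.06. Of 11 genes of dopamine receptors and their signalling 8 were tested, and all 8 lay above 0, with a median of 0.28. In the same comparison, 4 of the 10 midbrain dopamine markers were tested and all 4 lay above 0, with a median of 0.32, while 15 of the 21 markers of hypothalamic nuclei were tested, of which 3 lay above 0 and 12 below, with a median of -0.41. The part of these lists in the values of Slc6a3 and Th in BCAA200 and BCAA20 was not tested. Against BCAA100 instead, 3 of the 8 dopamine receptor and signalling genes lay above 0 in BCAA200 and 5 below, with a median of -0.07. The median over all genes was -0.01 in the first comparison and -0.05 in the second.

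Of histamine neuron markers besides Slc18a2 and Maob, 3 of 4 were tested, with 1 above 0 and 2 below in BCAA200 minus BCAA20. Hdc, histidine decarboxylase, which makes histamine in the tuberomammillary nucleus of the hypothalamus, ran from 0.180 to 6.75 FPKM and had a rho of 0.551 with Maob and 0.023 with Slc6a3. Of 9 genes of hypothalamic dopamine cells and prolactin feedback besides Th, Ddc and Slc6a3, 7 were tested, with 2 above 0, 5 below and a median of -0.16. Their summed level ran from 118 to 163 FPKM in BCAA20, from 123 to 154 FPKM in BCAA50, from 133 to 300 FPKM in BCAA100 and from 109 to 164 FPKM in BCAA200. Drd1, a dopamine receptor of striatal output neurons, had a rho of -0.489 with Slc6a3 and ran from 1.10 to 37.0 FPKM, and Drd2 had a rho of 0.061 with it. For the other dopamine signalling genes tested, rho with Slc6a3 was -0.460 for Gnal, -0.455 for Rgs9 and -0.427 for Gng7. It was -0.391 for Ppp1r1b, -0.370 for Pde10a and -0.363 for Adcy5.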

How the data were processed

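The deposited table gives 1 FPKM value for every gene symbol in each library, as computed by the authors. The submitters' processing notes name TopHat2 2.0.14, StringTie 1.2.4 and GRCm38, with no role or order, and libraries were stranded per the labels' protocols. The annotation was not given in the sources used here, and gene positions are from GENCODE on GRCm38. The authors also deposited a Pearson R with intake, a score between -1 and 1, and its p-value. Among 1253 weakly expressed genes, 12.1% of 23992 values were whole multiples of the lowest one to a tolerance of 0.05, and even spacing would give 10%, so reads were not recovered. The total of a column was 293850 to 328809 FPKM, and no 2 libraries were identical. Each library was taken as a replicate of its diet and sex.

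Genes averaging 1 FPKM or more were fitted as log2(FPKM + 0.5) by limma 3.58.1 in R 4.3.3, with 8 group means, a mean-variance trend and robust moderation. This scale understates the fold change of low genes. Diet contrasts averaged the sexes, and p-values were two-sided and adjusted by Benjamini-Hochberg over 13806 genes at a threshold of 0.05. Pairs of genes were tested by permutation with 100000 resamples over 36 pairs, and Slc6a4 by an exact permutation test. The scripts were tested on simulated data. The alternatives were other pseudocounts, no filter, median-ratio scaling, array weights, only the diets compared, leaving out each library or the libraries that stood apart, and a replicate block. The genes named were the 9 monoamine genes, the 5 most alike of each among genes with a name other than a predicted one, and marker genes where a library stood apart. These genes and the lists were chosen with earlier results of these data known. Every column was matched to a library.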

Additional observations from a re-analysis of the deposited data

Results flagged for a closer look

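In each diet, the highest and lowest of the 6 libraries were compared with the others for each of the 9 genes. Of 36 groups, 6 had a library far from the rest. The rule flags about 1 in 20 by chance only for independent, normally spread values. These genes are correlated, and the rate over all genes was not computed. Of the 6 flagged, 4 are Tph2 and Slc6a4 in the same 2 libraries. Their high levels there were known when the genes were chosen, so they are a description and do not count against that rate. The other 2 are Maob and Gch1. In BCAA50 female replicate 3, Tph2 was at 4.219 FPKM and Slc6a4 at 1.468 FPKM, with the gap to the next library taking 0.788 and 0.811 of the range of the diet. In BCAA200 male replicate 4, Tph2 was at 7.301 FPKM and Slc6a4 at 1.949 FPKM, with gaps of 0.66 and 0.684 of the range. Maob was at 25.403 FPKM in BCAA50 female replicate 1, a gap of 0.711 of the range, in a library with Slc17a7 at 6.23 FPKM. Gch1 was at 0.567 FPKM in BCAA20 male replicate 5, the lowest of its diet, with a gap of 0.743 of the range.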

How the results depend on the processing

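FPKM give no depth, 3 libraries formed each group, and diet and lane cannot be told apart for BCAA100. No monoamine gene passed in any of the 9 comparisons under any alternative run. Counts of genes called over the whole table moved as follows, and the cause was not tested. In BCAA200 minus BCAA100, against 2, they were 5 with median-ratio scaling, 5 with only the diets compared, 49 without the 4 libraries that stood apart by sex-linked genes or Slc17a7, and 36 without 5, a set with low Hcrt added after seeing the data. BCAA50 minus BCAA100 gave 19 and 7 without those sets, and BCAA20 minus BCAA100 gave 5 and 6, and 2 with only the diets compared. Without the 5, BCAA200 minus BCAA50 gave 3 and BCAA50 minus BCAA20 gave 3. The trend gave 1 and the sex difference 2 with array weights, and the sex difference gave 1 without the 4.

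Leaving out each library in turn gave 0 to 41 genes in BCAA200 minus BCAA100, 0 to 23 in BCAA50 minus BCAA100, both highest without BCAA50 female replicate 1, 0 to 2 in BCAA20 minus BCAA100 and in the sex difference, 0 to 1 in BCAA200 minus BCAA20, BCAA200 minus BCAA50, BCAA50 minus BCAA20 and the trend, and 8 to 11 between the sexes. In BCAA200 minus BCAA20, Gch1 turned to -0.015 with array weights. With 1 library left out, Gch1 ran from -0.11 to 0.14, below 0 without BCAA20 male replicate 5, BCAA200 female replicate 3 or BCAA200 male replicate 4. Ddc ran from -0.053 to 0.37 and Slc18a2 from -0.046 to 0.51, each below 0 without BCAA200 female replicate 3, and Maob from -0.060 to 0.092, below 0 without that library or BCAA200 male replicate 4. None of these passed in any setting. Tph2 stayed between -1.08 and -0.43 and Slc6a4 between -0.86 and -0.32.

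The number of correlated pairs was 22, and 19 to 22 with 1 library left out. It was 19 within lane 1, 26 without the 4 libraries and 23 without the 5. Over deviations from group means it was 30, which can be too high for the reason given above. The replicate number did not pair the libraries. Of 36 same-number pairs of libraries, 6 had a correlation of deviations over 0.1, with a median of 0.0193, and 9 of 24 libraries correlated best with their own number. With the replicate block, 0 monoamine genes passed and BCAA200 minus BCAA100 called 2 genes.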
